A study of Mus musculus with 8 samples.

Results

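The genes described are Hnf4a, Synpo2, Spns3, Slc22a3, Mdga1, Bsn, Sh2d5, Arhgap30, Fcho1 and Cd34, which were more abundant in Vwf- than in Vwf+ long-term blood stem cells (LT-HSCs) from the marrow of mice. They were taken by gene symbol from a table of 24421 genes because they had been measured as lower in Vwf+ cells. Among the 267 genes called lower there, they hold ranks 1, 2, 4 to 8, 10, 11 and 13 by p-value. All 10 genes passed the filter on low counts, as did 15917 genes in total. The difference between the Vwf fractions chose them, so it is given as a description with no test. Flt3, Dnah8 and 5430427O19Rik hold the ranks between them. Fcho1, at rank 13, had a log2 difference of −0.85 between Vwf+ and Vwf- cells, and the next gene down, Lhfpl2, had −1.40.

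Total RNA was sequenced from LT-HSCs of mice aged 10 to 12 months, sorted as lineage-negative, CD117+ and Sca1+ cells with high CD150 and low CD48. A Vwf-GFP reporter, which reads the promoter activity of the von Willebrand factor gene and marks stem cells biased toward megakaryocytes, split them into Vwf+ and Vwf- cells. CD34 was not among the sort markers. Both fractions came from wild-type (WT) mice and from mice heterozygous for Dnmt3a, a de novo DNA methyltransferase gene (Dnmt3a+/-). The 4 groups of cells were therefore Vwf+ WT, Vwf+ Dnmt3a+/-, Vwf- WT and Vwf- Dnmt3a+/-, and each carried the reporter. Each group held 1 male pool (replicate 1) and 1 female pool (replicate 2) of 3 to 4 mice, so single mice are not resolved, and sex and replicate number are the same thing. The labels do not describe the Dnmt3a allele, and they do not say whether the Vwf+ and Vwf- cells of a pool came from the same mice.

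CD34 is a sialomucin of the cell surface. In adult mice it is low or absent on most LT-HSCs and appears as they give rise to progenitors. HNF4A is a nuclear receptor that binds DNA as a homodimer and maintains the gene programmes of liver, gut and kidney epithelium. Several of the other genes are best known outside blood: Bsn and Mdga1 at synapses, Synpo2 in muscle, and Slc22a3 as a carrier of organic cations. DNA methyltransferases act on the cytosine of CpG dinucleotides, so the CpG content of a promoter is part of its description where Dnmt3a dosage differs.

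Start-site windows of 300 bases, from 250 bases before to 50 bases after the annotated start, were available from RefSeq (GRCm38.p6, the build also called mm10) for 8 of the 10 genes. Hnf4a had 2 such windows, one for each annotated start, which makes 9 windows. The windows of Hnf4a, Cd34 and Bsn are printed 5′ to 3′ on the strand of the gene because they hold the fewest CpG dinucleotides of the 9, the number at the median of all annotated windows, and the most; CpG is in capitals. Hnf4a window 1 is chr2:163506607-163506906 and window 2 is chr2:163546905-163547204, both on the plus strand. The Cd34 window is chr1:194938571-194938870 on the plus strand, and the Bsn window is chr9:108190334-108190633 on the minus strand.
Hnf4a window 1: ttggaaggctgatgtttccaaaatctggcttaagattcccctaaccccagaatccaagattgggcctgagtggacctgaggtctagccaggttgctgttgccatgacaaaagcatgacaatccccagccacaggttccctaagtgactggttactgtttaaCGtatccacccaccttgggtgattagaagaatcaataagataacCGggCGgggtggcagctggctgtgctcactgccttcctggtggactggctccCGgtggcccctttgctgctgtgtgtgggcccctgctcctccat
Hnf4a window 2: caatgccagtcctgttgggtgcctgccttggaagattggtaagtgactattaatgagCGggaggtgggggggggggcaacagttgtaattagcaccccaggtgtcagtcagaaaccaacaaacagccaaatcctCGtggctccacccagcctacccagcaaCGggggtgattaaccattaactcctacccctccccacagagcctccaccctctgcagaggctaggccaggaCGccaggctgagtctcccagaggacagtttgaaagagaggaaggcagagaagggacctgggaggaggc
Cd34: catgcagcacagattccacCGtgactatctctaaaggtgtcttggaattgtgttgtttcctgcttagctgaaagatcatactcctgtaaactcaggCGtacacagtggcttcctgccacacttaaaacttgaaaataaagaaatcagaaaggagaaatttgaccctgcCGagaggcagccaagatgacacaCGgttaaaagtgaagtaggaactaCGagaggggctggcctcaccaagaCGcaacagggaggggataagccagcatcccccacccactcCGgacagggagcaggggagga
Bsn: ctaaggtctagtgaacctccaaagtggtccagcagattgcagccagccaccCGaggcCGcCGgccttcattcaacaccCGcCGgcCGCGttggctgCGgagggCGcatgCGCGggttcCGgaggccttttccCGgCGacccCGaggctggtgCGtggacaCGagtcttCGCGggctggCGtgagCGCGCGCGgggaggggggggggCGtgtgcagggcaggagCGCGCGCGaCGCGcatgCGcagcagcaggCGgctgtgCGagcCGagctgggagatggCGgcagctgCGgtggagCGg

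Each Hnf4a window held 4 CpG dinucleotides, the Slc22a3 window 5, the Cd34 window 7 and the Arhgap30 window 9. The windows of Synpo2, Fcho1, Mdga1 and Bsn held 17, 21, 28 and 38. Over all 32851 windows of 27025 gene symbols the median was 7, with quartiles at 3 and 20, and 31.4% of windows held fewer CpG dinucleotides than those of Hnf4a. The genes thus range from CpG-poor to CpG-rich starts, and the 2 with the largest ratio between the fractions, Synpo2 and Hnf4a, lie on different sides of that median. Then 5 short motifs were searched on both strands, each by its exact letters. The HNF4 motif caaagtcca was in 0 of the 9 windows and in 0.475% of all windows, and the nuclear receptor motif aggtca was in 0 of 9 and in 16.3%. The RUNX motif tgtggt was in the windows of Arhgap30 and Fcho1 and in 16.8% of all windows. The GATA motif agataa was in Hnf4a window 1 (11.2% of all windows), and the ETS motif ccggaa was in those of Slc22a3 and Bsn (14.9%). None of the 5 motifs contains another on either strand. A match is a description of these letters alone.

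Total counts ran from 21809278 to 28844349 in the 4 Vwf+ libraries and from 27891160 to 39402418 in the 4 Vwf- libraries. These ranges overlap, but within each genotype and sex the Vwf- library was read more deeply than the Vwf+ library. Levels are given as CPM, the counts of a gene scaled to one common library total, with the trimmed mean of M-values (TMM) as the library factor. Vwf stood at 1034 to 1409 CPM in the Vwf+ libraries and at 98.9 to 116 CPM in the Vwf- libraries, which do not overlap. All 12 LT-HSC marker genes were measured, Kit at 815.5 to 1033 CPM among them. The 4 haemoglobin genes looked up were at 0 in all 8 libraries, while the erythroid list that holds them summed to 18.4 to 42.3 CPM. How the counting treated these 4 genes is not given, so their 0 is no check for erythroid cells. Dnmt3a itself had a log2 difference of 0.38 ± 0.16 between Dnmt3a+/- and WT cells (SE; edgeR adjusted p = 0.998), and a sum over the whole gene is no check of the allele. In these pooled samples, fewer cells of a type and less RNA per cell cannot be told apart.

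Hnf4a (chr2:163506808-163572910, plus strand) was the transcription factor of the set. The male and the female pool read 2.11 and 1.42 CPM for Vwf+ WT, and 2.15 and 3.58 CPM for Vwf+ Dnmt3a+/-. For Vwf- WT they read 18.5 and 30.4 CPM, and for Vwf- Dnmt3a+/- 15.6 and 30.7 CPM. The 4 Vwf- libraries lay above the 4 Vwf+ libraries, and in Vwf- cells both female pools lay above both male pools. Averaged over genotype, Hnf4a was 10.5-fold lower in Vwf+ cells, and the ratio of Vwf- to Vwf+ within a genotype and sex was 7.25, 8.57, 8.74 and 21.4. The highest ratio, in WT females, rests on 33 counts of Hnf4a in the Vwf+ library, the fewest of any library.

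The liver programme that HNF4A maintains in hepatocytes was for the most part not measurable. Of 16 liver target genes, 12 stayed under 1 CPM in all 8 libraries, including Apoc3, Ttr, F7, Otc and G6pc, and 6 were tested. Over all genes 5.44% were called between the fractions, at an edgeR adjusted p under 0.05, with 3.76% higher and 1.68% lower in Vwf+ cells (7.42% and 5.97% with replicate number as a block). Of the 6, 0 were called higher and 1 lower, with a median log2 difference of 0.20 against −0.0072 over all genes. That one was Apob, the structural protein of liver and gut lipoproteins, at 3.73 to 4.74 CPM in Vwf+ and 6.76 to 17.0 CPM in Vwf- libraries. It fell by 1.52 ± 0.29 on the log2 scale (SE; edgeR adjusted p = 0.0138), and the call was lost without Vwf- WT replicate 2 (edgeR adjusted p = 0.0557) and on the TPM scale (limma adjusted p = 0.103). Among 11 tested nuclear receptors and liver-type factors, 0 were called in either direction (median 0.13). The closest relative, Hnf4g, stayed under 1 CPM in all libraries.

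Cd34 (chr1:194938819-194961279, plus strand) read 64.3 and 66.1 CPM for Vwf+ WT, male pool first, and 54.95 and 51.8 CPM for Vwf+ Dnmt3a+/-. The Vwf- values were 153.5 and 182 CPM for WT, with 121 and 185 CPM for Dnmt3a+/-. The fractions did not overlap, and the spread between the male and female pool was wider in Vwf- than in Vwf+ cells. Cd34 was 2.71-fold lower in Vwf+ cells, and the 4 ratios within a genotype and sex ran from 2.20 to 3.57. Of the CD34 family, Podxl, which encodes the related sialomucin podocalyxin, went the other way and rose by 0.68 ± 0.12 in Vwf+ cells (SE, log2; edgeR adjusted p = 0.00812), from 27.1 to 41.0 CPM in Vwf- to 48.3 to 68.4 CPM in Vwf+ libraries. That call was lost on the TPM scale (limma adjusted p = 0.0601). Podxl2 stayed under 1 CPM in all libraries.

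Several markers of multipotent progenitors were lower in Vwf+ cells, like Cd34, and the estimates of cell cycle genes had the same sign. Of 10 tested progenitor markers 4 were called lower in Vwf+ cells (median −0.91), among them Flt3 by −2.62 ± 0.19 (SE, log2), the TNF receptor gene Cd27 by −0.88 ± 0.11 and the tetraspanin gene Cd37 by −1.28 ± 0.18. The edgeR adjusted p was 6.87e-05 for Flt3, 0.00144 for Cd27 and 0.00287 for Cd37. The other direction was seen in 3 of the 10, the myeloid genes Mpo (1.59 ± 0.51), Ctsg (1.51 ± 0.64) and Irf8 (1.07 ± 0.34, SE, log2), with edgeR adjusted p of 0.118, 0.255 and 0.117. With replicate number as a block 2 of the list, Mpo and Irf8, were called higher (edgeR adjusted p = 0.00536 and 0.0128) and 4 lower. The summed level over the list was 134.6 to 248 CPM in Vwf+ and 258 to 312.8 CPM in Vwf- libraries. Of 12 LT-HSC markers 6 were called higher (median 0.66), namely Slamf1, Ctnnal1, Hoxb5, Fgd5, Mecom and Mllt3, and 0 lower. The call of Mecom was lost without Vwf+ WT replicate 1 (edgeR adjusted p = 0.0576) or Vwf- WT replicate 2 (edgeR adjusted p = 0.06). All 20 G2/M genes and all 20 S phase genes had a negative difference (medians −0.79 and −0.62). In edgeR the G2/M gene Kif23 and the S phase genes Dscc1 and Tyms were called lower, and with the block 20 and 19 genes of these lists were. Kif23 lost its call without Vwf+ WT replicate 1, Vwf+ WT replicate 2 or Vwf- WT replicate 2 (edgeR adjusted p up to 0.0933) and on the TPM scale (limma adjusted p = 0.0571), and Tyms without Vwf- WT replicate 2 (edgeR adjusted p = 0.0513). The part of progenitor or cycling cells in the difference of Cd34 or of the other 9 genes was not tested.

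**Figure D1:**
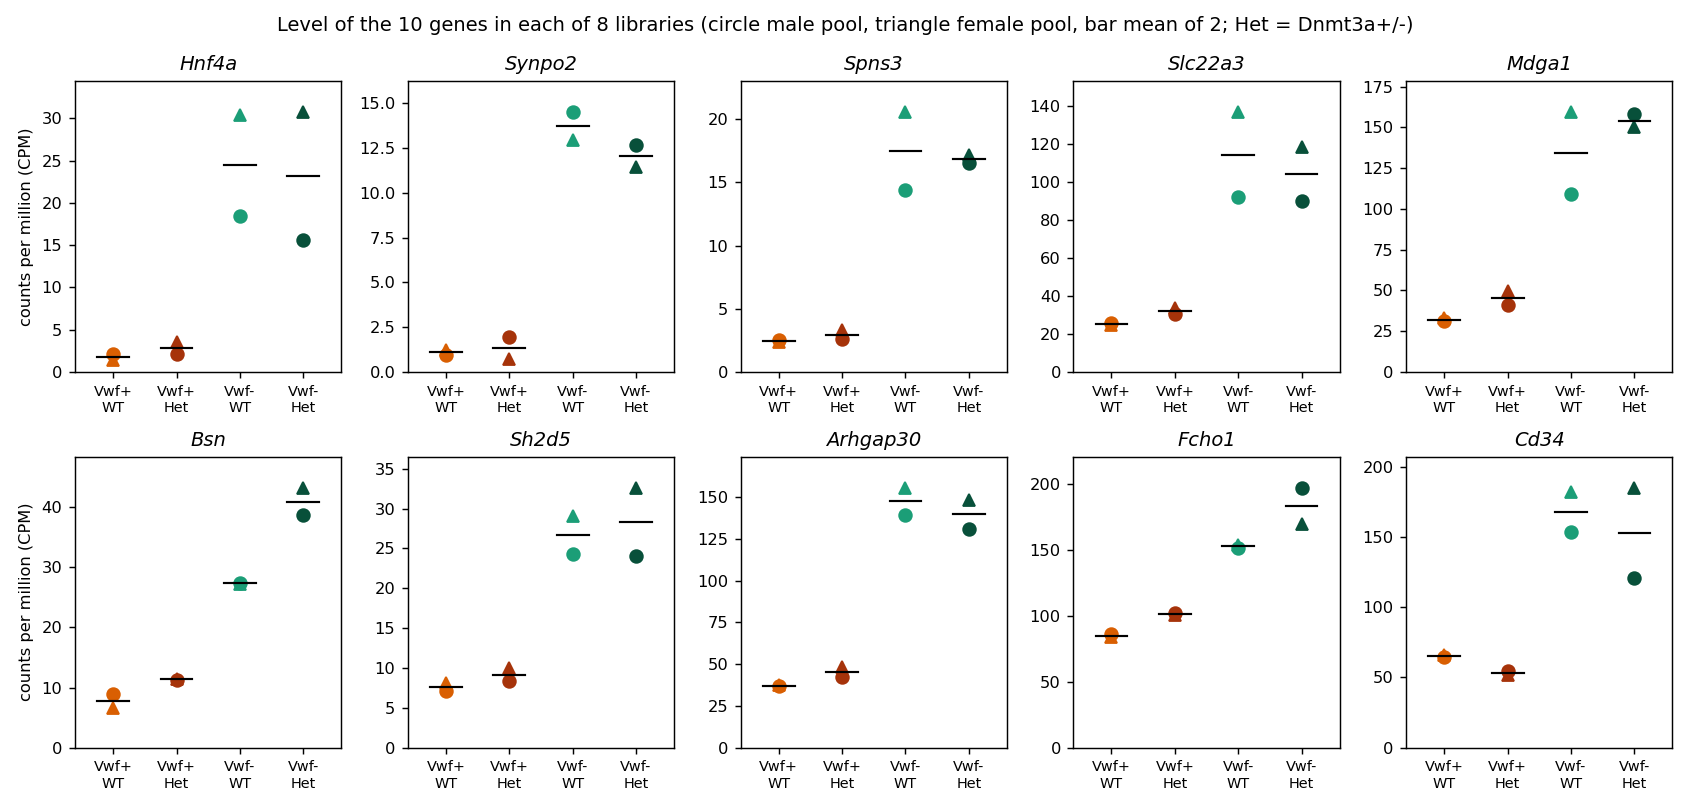
Level of each of the 10 genes in CPM (vertical axis, linear, its own scale per panel) in the 8 libraries, by group; circles are male pools, triangles female pools and bars the mean of 2. In every panel the Vwf- libraries lie above the Vwf+ libraries, and Fcho1 has the smallest ratio between its highest Vwf+ and lowest Vwf- library, which read 102 and 152 CPM.

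Mdga1 (chr17:29827949-29970087, minus strand) encodes a GPI-anchored immunoglobulin protein that binds neuroligins and keeps them from neurexins at synapses. The male and female pools read 31.0 and 33.1 CPM for Vwf+ WT, then 40.8 and 49.8 CPM for Vwf+ Dnmt3a+/-, 109 and 159 CPM for Vwf- WT, and 158 and 150.3 CPM for Vwf- Dnmt3a+/-. The fractions did not overlap, and the male Vwf- WT pool was the lowest of the Vwf- libraries. Mdga1 was 3.77-fold lower in Vwf+ cells, with ratios within a genotype and sex of 3.02 to 4.82. Nlgn2, the neuroligin gene bound by MDGA1 at inhibitory synapses, ranged from 104.8 to 135.6 CPM over all libraries. The paralog Mdga2 was near the limit of detection, at 0 to 1.34 CPM, and its log2 difference of 0.67 had an interval of −2.53 to 3.86 (edgeR adjusted p = 0.892).

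Spns3 (chr11:72494919-72550506, minus strand) belongs to the spinster family of membrane transporters, whose member Spns2 exports sphingosine 1-phosphate. Its male and female pools read 2.52 and 2.41 CPM for Vwf+ WT, then 2.59 and 3.33 CPM for Vwf+ Dnmt3a+/-, 14.4 and 20.5 CPM for Vwf- WT, and 16.5 and 17.2 CPM for Vwf- Dnmt3a+/-. The Vwf+ libraries lay close together and far under the Vwf- libraries, with a difference of 6.335-fold and ratios of 5.16 to 8.52. Spns2, its neighbour on chromosome 11, ran from 245 to 272 CPM in Vwf+ and from 295 to 323 CPM in Vwf- libraries. At −0.27 ± 0.11 (SE, log2) Spns2 missed the threshold (edgeR adjusted p = 0.214), as did Spns1 at −0.09 ± 0.15 (edgeR adjusted p = 0.846). In the list of 13 tested transporters and sphingosine 1-phosphate genes 1 was called higher and 0 lower (median −0.19). It was the receptor gene S1pr1, which rose by 0.74 ± 0.14 (SE, log2; edgeR adjusted p = 0.0109). Its call was lost without Vwf- WT replicate 2 (edgeR adjusted p = 0.0609) and on the TPM scale (limma adjusted p = 0.0716).

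Slc22a3 (chr17:12418960-12507704, minus strand) encodes an organic cation transporter and lies in the imprinted domain of Igf2r. In the male and female pools it read 25.6 and 24.9 CPM for Vwf+ WT, then 30.3 and 33.4 CPM for Vwf+ Dnmt3a+/-, 92.0 and 137 CPM for Vwf- WT, and 90.1 and 118 CPM for Vwf- Dnmt3a+/-. The fractions did not overlap, and both female Vwf- pools lay above both male Vwf- pools. Slc22a3 was 3.84-fold lower in Vwf+ cells, with ratios of 2.97 to 5.48. In the same domain Slc22a2 stayed under 1 CPM in all libraries. Igf2r, the mannose 6-phosphate receptor gene, stood at 99.99 to 106 CPM in Vwf+ and 75.6 to 88.7 CPM in Vwf- libraries, and at 0.31 ± 0.10 (SE, log2) it missed the threshold (edgeR adjusted p = 0.116). The block brought Igf2r past it (edgeR adjusted p = 0.0335). Airn, the noncoding RNA that silences the domain on the paternal allele, had a log2 difference of 0.10 on 1.74 to 6.10 CPM. Of the 3 tested organic cation transporters 0 were called (median 0.12). Slc22a5, the carnitine transporter gene, ranged from 16.3 to 22.8 CPM over the 8 libraries.

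Synpo2 (chr3:123076519-123236149, minus strand) encodes an actin-bundling protein known from the Z-disc of muscle. It was the least abundant gene per length in Vwf+ cells, with 0.945 and 1.25 CPM for WT and 1.97 and 0.724 CPM for Dnmt3a+/- (male, female), which is 20 to 45 counts. For Vwf- the WT pools had 14.5 and 12.9 CPM, and the Vwf- Dnmt3a+/- pools 12.7 and 11.5 CPM. The Vwf- libraries were close together, and the ratios within a genotype and sex, 6.43 to 15.8, varied with the low Vwf+ counts. On average Synpo2 was 10.6-fold lower in Vwf+ cells, and on the log2(TPM + 0.5) scale the log2 difference shrank from −3.41 to −2.37. Its relative Synpo, an actin-binding protein of kidney podocytes and dendritic spines, went the other way. Synpo rose by 2.00 ± 0.32 (SE, log2; edgeR adjusted p = 0.00527), from 1.14 to 2.80 CPM in Vwf- to 5.61 to 9.27 CPM in Vwf+ libraries, and kept the call under all 13 alternatives. It was the only called gene of the 10 tested in the list of the synaptopodin family and Z-disc partners (median −0.010). Synpo2l ranged from 0.398 to 1.09 CPM, with a log2 interval of −1.90 to 1.02 (edgeR adjusted p = 0.825).

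Bsn (chr9:108096022-108190384, minus strand) encodes bassoon, a very large scaffold protein of the presynaptic active zone. By male and female pool it read 8.86 and 6.59 CPM for Vwf+ WT, then 11.2 and 11.5 CPM for Vwf+ Dnmt3a+/-, 27.4 and 27.2 CPM for Vwf- WT, and 38.6 and 43.2 CPM for Vwf- Dnmt3a+/-. All 4 groups were apart from one another, with the Dnmt3a+/- pools above the WT pools in each fraction. Bsn was 3.57-fold lower in Vwf+ cells, with ratios of 3.10 to 4.13. Its paralog Pclo, which encodes piccolo, had the opposite direction, at 49.9 to 58.6 CPM in Vwf+ and 21.7 to 42.3 CPM in Vwf- libraries. The rise of 0.77 (SE 0.195, log2) passed narrowly (edgeR adjusted p = 0.0487). It did not pass under upper quartile scaling (edgeR adjusted p = 0.0512), on the TPM scale (limma adjusted p = 0.255) or without any 1 of the libraries other than Vwf- Dnmt3a+/- replicate 1 and Vwf- WT replicate 2 (edgeR adjusted p up to 0.151). Of 12 tested active zone genes 3 were called higher and 0 lower (median 0.086). The others were Unc13b, a vesicle priming factor, by 0.87 ± 0.19 (SE, log2; edgeR adjusted p = 0.0233), and Erc2, at 2.14 to 2.85 CPM in Vwf+ and 0.024 to 0.495 CPM in Vwf- libraries (edgeR adjusted p = 0.0189). Both lost the call without Vwf+ WT replicate 2 or Vwf- WT replicate 2, and Unc13b also without Vwf+ Dnmt3a+/- replicate 2 and on the TPM scale (adjusted p up to 0.103 in edgeR and limma).

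**Figure D2:**
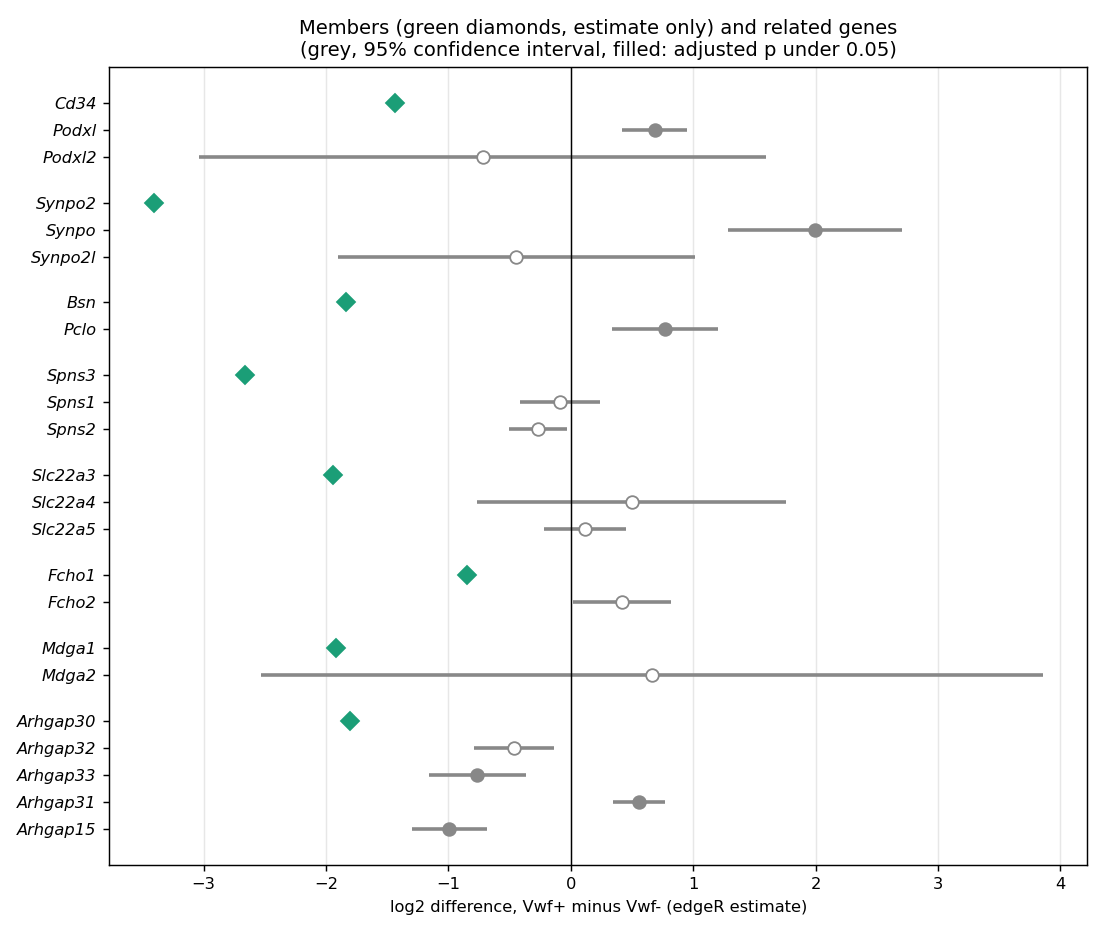
Log2 difference between Vwf+ and Vwf- cells (horizontal axis, edgeR) for 8 of the 10 genes as green diamonds and for related genes of their lists in grey with the 95% confidence interval, filled where the adjusted p was under 0.05. Podxl, Synpo and Pclo lie to the right of 0 at 0.68, 2.00 and 0.77, while Cd34, Synpo2 and Bsn lie to the left at −1.44, −3.41 and −1.83.

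Sh2d5 (chr4:138250403-138261332, plus strand) encodes an SH2-domain adaptor studied in brain, where it binds the Rac regulator BCR. The male and female pools read 7.15 and 8.10 CPM for Vwf+ WT, then 8.38 and 9.955 CPM for Vwf+ Dnmt3a+/-, 24.3 and 29.1 CPM for Vwf- WT, and 24.0 and 32.6 CPM for Vwf- Dnmt3a+/-. The female pool was the higher in each of the 4 groups. Sh2d5 was 3.29-fold lower in Vwf+ cells, with ratios of 2.87 to 3.597. Bcr itself ranged from 133 to 171 CPM in Vwf+ and from 151.5 to 176 CPM in Vwf- libraries.

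Arhgap30 (chr1:171388954-171410298, plus strand) encodes a GTPase-activating protein that turns off small GTPases of the cytoskeleton. Its male and female pools read 37.0 and 37.5 CPM for Vwf+ WT, then 42.45 and 48.4 CPM for Vwf+ Dnmt3a+/-, 139.5 and 156 CPM for Vwf- WT, and 131 and 148.5 CPM for Vwf- Dnmt3a+/-. The replicates of a group were close, and Arhgap30 was 3.49-fold lower in Vwf+ cells, with ratios of 3.07 to 4.15. Of 19 tested regulators of such GTPases 1 was called higher and 3 lower (median −0.12), and 1 and 5 with replicate number as a block. Arhgap31, a GTPase-activating protein for Rac and CDC42, rose by 0.56 ± 0.095 (SE, log2; edgeR adjusted p = 0.0072), a call lost on the TPM scale (limma adjusted p = 0.059). Arhgap15 fell by 0.99 ± 0.14 (SE, log2; edgeR adjusted p = 0.0023) and kept the call under all 13 alternatives. Rhoh, which encodes a blood cell GTPase family protein without GTPase activity, fell by 0.60 ± 0.13 (edgeR adjusted p = 0.0238), and Arhgap33 fell by 0.76 ± 0.18 (edgeR adjusted p = 0.0344). Rhoh lost the call without Vwf+ Dnmt3a+/- replicate 1, Vwf+ Dnmt3a+/- replicate 2, Vwf+ WT replicate 2, Vwf- WT replicate 1 or Vwf- WT replicate 2 (edgeR adjusted p up to 0.101), and Arhgap33 without any of these or Vwf- Dnmt3a+/- replicate 1 (up to 0.146). On the TPM scale neither passed (limma adjusted p = 0.108 and 0.13).

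Fcho1 (chr8:71708387-71725716, minus strand) encodes an F-BAR protein that starts clathrin-coated pits together with the AP2 adaptor. In the male and female pools it read 86.4 and 83.9 CPM for Vwf+ WT, then 102 and 101 CPM for Vwf+ Dnmt3a+/-, 152 and 154 CPM for Vwf- WT, and 197 and 170 CPM for Vwf- Dnmt3a+/-. This was the smallest ratio of the 10 genes, 1.80-fold, with 1.68 to 1.93 within a genotype and sex, and it was also the most even. Of 17 tested clathrin and AP2 genes 0 were called in either direction (median 0.090), and 3 were called higher with replicate number as a block. The paralog Fcho2 was one of those 3, at 116 to 165 CPM in Vwf+ and 82.4 to 134 CPM in Vwf- libraries, at 0.42 ± 0.18 (SE, log2; edgeR adjusted p = 0.269, and 0.00589 under the block).

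Set side by side, the 10 genes had log2 differences of −3.41 to −0.85 between Vwf+ and Vwf- cells, with a median of −1.88 against −0.0072 over all tested genes. In all 10 the 4 Vwf- libraries lay above the 4 Vwf+ libraries, as in 848 genes (5.33% of those tested), and nothing is read from this because the genes were chosen on it. The order of the ratios was not that of the levels. On the TPM scale, which divides by gene length, the order in Vwf- WT cells was Cd34 at 138 TPM, Fcho1 at 97.1, Arhgap30 at 71.1, Slc22a3 at 71.0, Mdga1 at 38.5, Spns3 at 20.8, Sh2d5 at 18.4, Hnf4a at 12.2, Synpo2 at 4.15 and Bsn at 3.70. Neighbours in this order whose replicates overlapped were Arhgap30 with Slc22a3, and Spns3 with Sh2d5. In Vwf+ WT cells Fcho1 at 49.4 TPM and Cd34 at 49.0 TPM were not apart, Hnf4a stood at 0.813 TPM beside Bsn at 0.967 TPM, with overlapping replicates, and Synpo2 was lowest at 0.301 TPM. Cd34 was thus the most abundant of the 10 in Vwf- WT cells and level with Fcho1 in Vwf+ WT cells.

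**Figure D3:**
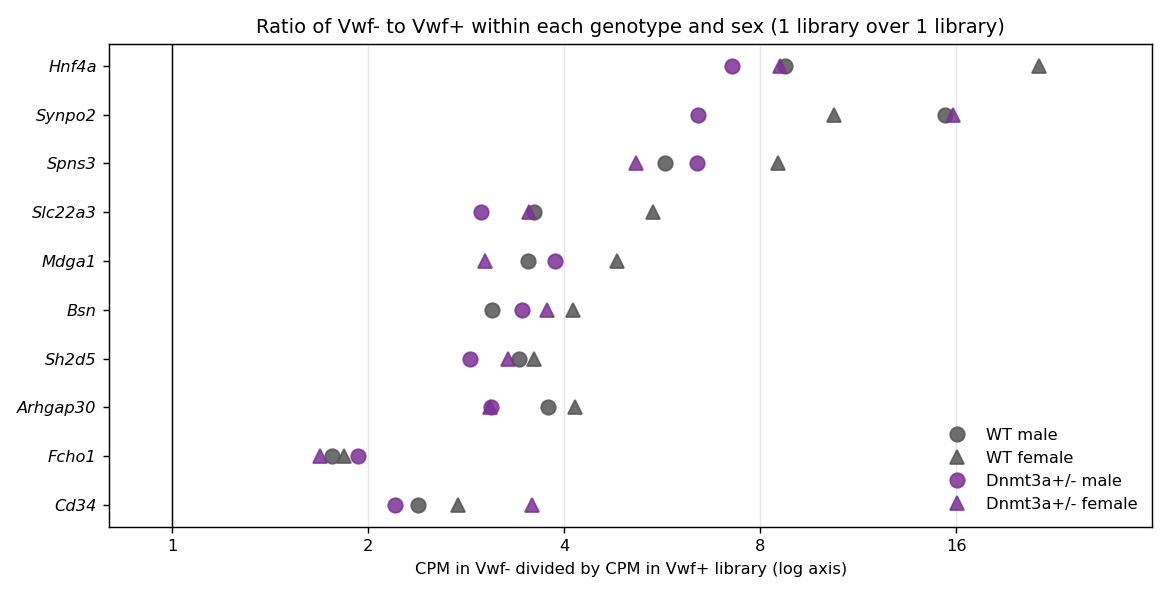
Ratio of the level in Vwf- to that in Vwf+ cells (horizontal log axis) for each gene, each point 1 library over 1 library of the same genotype and sex. Hnf4a and Synpo2 spread widest, from 7.25 to 21.4 and from 6.43 to 15.8, and Fcho1 is the narrowest at 1.68 to 1.93.

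The profiles over the 8 libraries were compared by the root mean square difference of centred log2 CPM, where 0 would be the same profile. Sh2d5 and Arhgap30 were each other's nearest gene among all tested, at 0.109. Slc22a3 had Arhgap30 (0.133), Sh2d5 (0.164) and Mdga1 (0.184) as its nearest genes. The nearest to Hnf4a were Mc5r, a melanocortin receptor gene (0.423), Flt3 (0.461) and Spns3 (0.474). Mc5r, like Hnf4a, was higher in the female than in the male Vwf- pools, with 7.78 (male) and 11.02 (female) CPM for WT and 5.95 and 13.1 CPM for Dnmt3a+/-. Cd34 was nearest to Gpr65, a proton-sensing receptor gene (0.193), Lhfpl2 (0.212) and Plekha6 (0.222). Among the 10, the distance to the nearest of the other 9 was largest for Synpo2 (Spns3, 0.621), then Hnf4a (Spns3, 0.474) and Fcho1 (Cd34, 0.433). The genes were chosen on the gap between the fractions, which is part of every profile, so these distances are a description and nothing is read from members lying near each other.

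The next question was whether these genes differed between Dnmt3a+/- and WT cells, a comparison other than the one that chose them. It is not independent of the choice. The genes rank high by a p-value from the same libraries, which uses the same spread between pools. Averaged over Vwf status, 0 of the 10 were called, and 0% of all 15917 genes were, with 516 genes at an unadjusted p under 0.05 in edgeR and 16 called by DESeq2. Bsn had the smallest p of the 10. It was higher in Dnmt3a+/- than in WT pools in 4 of 4 pairs of the same fraction and sex, by 1.27-fold to 1.74-fold. Its log2 difference was 0.57 (SE 0.145; edgeR adjusted p = 0.998, and 0.115 under the block). Mdga1 differed by 0.35 ± 0.13 and Fcho1 by 0.26 ± 0.10 (SE, log2), with the same edgeR adjusted p of 0.998. Cd34 was the only one with a negative estimate, −0.21 ± 0.14 (SE). For Hnf4a the estimate was 0.31 with a 95% interval of −0.33 to 0.96, which as a ratio of Dnmt3a+/- to WT is 0.794 to 1.94.

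In Vwf+ cells 9 of the 10 estimates were positive, with a median of 0.28 against 0.0070 over all genes, and 0 were called (0% of all genes; 363 genes at an unadjusted p under 0.05 in edgeR, and 5 called by DESeq2). Both Dnmt3a+/- pools lay above both WT pools for 8 of the 10, namely Hnf4a, Spns3, Slc22a3, Mdga1, Bsn, Sh2d5, Arhgap30 and Fcho1, whereas 14.3% of all genes did so. Cd34 was the exception with both Dnmt3a+/- pools lower (13.9% of all genes), and Synpo2 overlapped. The same was seen widely among genes that separate the fractions: 108 of the 267 genes called lower in Vwf+ cells (40.4%) had both Dnmt3a+/- pools above both WT pools. Of the 599 called higher, 172 (28.7%) had both below. In Vwf- cells the corresponding shares were 14.6% and 14.9%, against 13.1% and 10.2% of all genes. Vwf itself read 1216 and 1409 CPM for Vwf+ WT, with 1034 and 1203 CPM for Vwf+ Dnmt3a+/-, a log2 difference of −0.23 ± 0.19 (SE; edgeR adjusted p = 1). These counts use the same Vwf+ libraries as the calls themselves, so they describe these pools.

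Cell cycle genes had estimates of the same sign in Vwf+ cells. All 20 G2/M genes had a positive estimate there (median 0.46) and 0 were called. Their summed level was 903 and 1264 CPM in the Vwf+ WT pools and 905 and 2377 CPM in the Vwf+ Dnmt3a+/- pools, so the female Dnmt3a+/- pool alone was high. For the 8 genes named above, the ratio of Dnmt3a+/- to WT was also taken in the male Vwf+ pools. It was 1.02 for Hnf4a, 1.03 for Spns3, 1.18 for Slc22a3 and 1.32 for Mdga1. For Bsn it was 1.27, for Sh2d5 1.17, for Arhgap30 1.15 and for Fcho1 1.19. Hnf4a had 49 counts in the male Vwf+ Dnmt3a+/- pool and 47 in the male Vwf+ WT pool, and Spns3 had 59 and 56. These counts are too close to call either gene higher in the male Dnmt3a+/- pool. The part of cycling cells in the genotype estimates of these 8 genes was not tested.

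In Vwf- cells, where the genes are abundant, 4 of the 10 estimates were positive and the median was −0.065, against 0.013 over all genes. Again 0 of the 10 were called (0% of all genes; 211 genes at an unadjusted p under 0.05 in edgeR, and 2 called by DESeq2). Both Dnmt3a+/- pools lay above both WT pools for Bsn and Fcho1 and below them for Synpo2, where 13.1% and 10.2% of all genes do so, and the other 7 overlapped. Bsn had an estimate of 0.58 with a 95% interval of 0.14 to 1.03 (edgeR adjusted p = 1). For Hnf4a and Cd34 the intervals were −0.93 to 0.76 and −0.57 to 0.30.

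**Figure D4:**
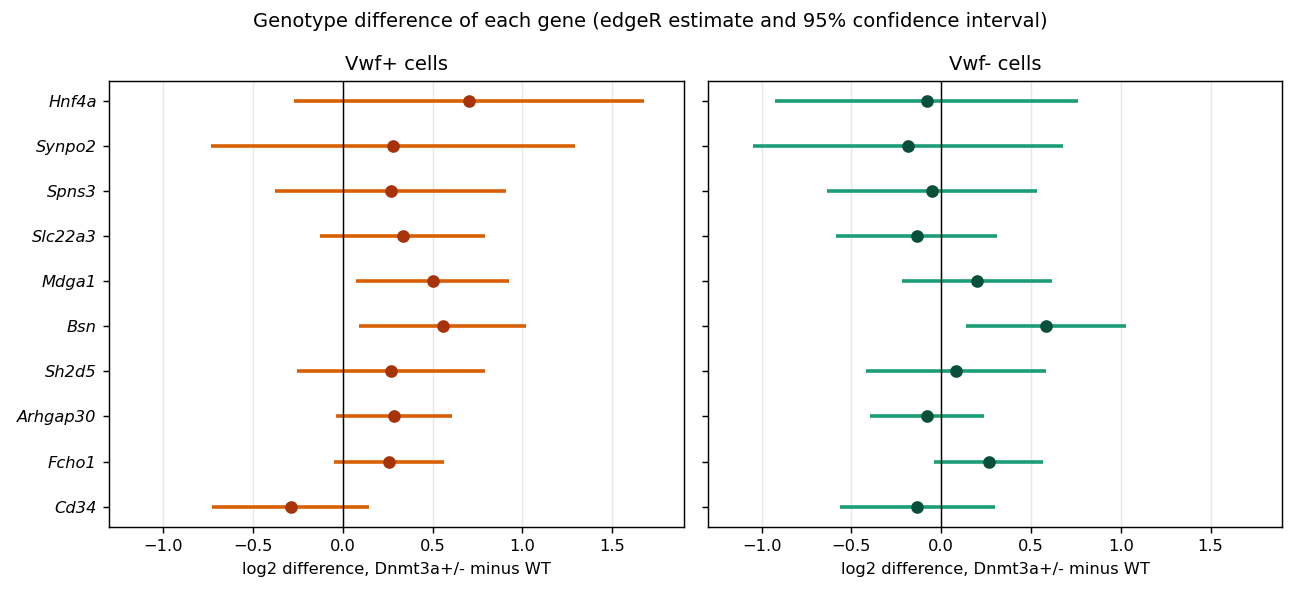
Log2 difference of Dnmt3a+/- minus WT (horizontal axis) in Vwf+ cells (left) and Vwf- cells (right), with the edgeR estimate as a point and the 95% confidence interval as a line. In Vwf+ cells 9 of 10 points lie to the right of 0, and in Vwf- cells 4 of 10 do; none of the adjusted p-values passed.

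Whether the gap between the fractions itself differed between genotypes was tested with the interaction term, for which a positive value means a smaller gap in Dnmt3a+/- cells. Of the 10 genes 7 had a positive estimate, with a range of −0.16 to 0.79 and a median of 0.31 against −0.0043 over all genes, and 0 were called (0% of all genes; 159 genes at an unadjusted p under 0.05 in edgeR, and 0 called with the block or by DESeq2). The largest was Hnf4a at 0.79, with a 95% interval of −0.50 to 2.08 (edgeR adjusted p = 1). Within each genotype, Hnf4a was 13.8-fold lower in Vwf+ WT than in Vwf- WT cells and 8.015-fold lower in Vwf+ than in Vwf- cells of Dnmt3a+/- mice. Slc22a3 was 4.52-fold and 3.27-fold lower in WT and Dnmt3a+/-, Arhgap30 3.96-fold and 3.08-fold, and Cd34 2.57-fold and 2.86-fold.

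Sex was balanced over the groups, with 4 male and 4 female pools, and is the same as replicate number. The difference between female and male pools was estimated for every tested gene. Over all genes 10.5% were called between female and male pools, 5.62% higher and 4.92% lower in females, and under upper quartile scaling the split was 672 higher and 968 lower. Of the 10 genes 0 were called. Hnf4a was closest, with a log2 difference of 0.58 ± 0.20 (SE, female minus male; edgeR adjusted p = 0.0759). The female to male ratio was 1.65 in Vwf- WT, 1.97 in Vwf- Dnmt3a+/-, 1.67 in Vwf+ Dnmt3a+/- and 0.672 in Vwf+ WT cells, so 3 of 4 groups had the female pool higher. Hnf4a passed without a filter, at 0.57 (edgeR adjusted p = 0.0262). On leaving out 1 library its estimate ran from 0.39 to 0.83. It was 0.83 without Vwf+ WT replicate 1 and 0.82 without Vwf+ WT replicate 2. Either omission leaves 1 Vwf+ WT library, so that group, where the female pool was lower, no longer bears on sex. The 2 runs are therefore not separate support. Slc22a3 differed by 0.28 ± 0.11 (SE; edgeR adjusted p = 0.108). Leaving out Vwf+ WT replicate 1 or Vwf+ WT replicate 2, which drops the same group, gave 0.38 and 0.37 for Slc22a3. Over all omissions of 1 library its estimate ran from 0.17 to 0.38.

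Sh2d5 and Arhgap30 were higher in the female pool in all 4 groups, a pattern that 15.7% of all genes share, and Synpo2 and Fcho1 were higher in the female pool in 1 of 4. None of these passed. The 20 G2/M genes were all called higher in female pools, and so were 15 of the 20 S phase genes. Summed G2/M levels were 1615 CPM in the male and 3099 CPM in the female Vwf- WT pool, and 1333 and 3241 CPM in the Vwf- Dnmt3a+/- pools. With 1 pool of each sex per group, sex cannot be told apart from other differences between the replicate 1 and replicate 2 pools.

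**Figure D5:**
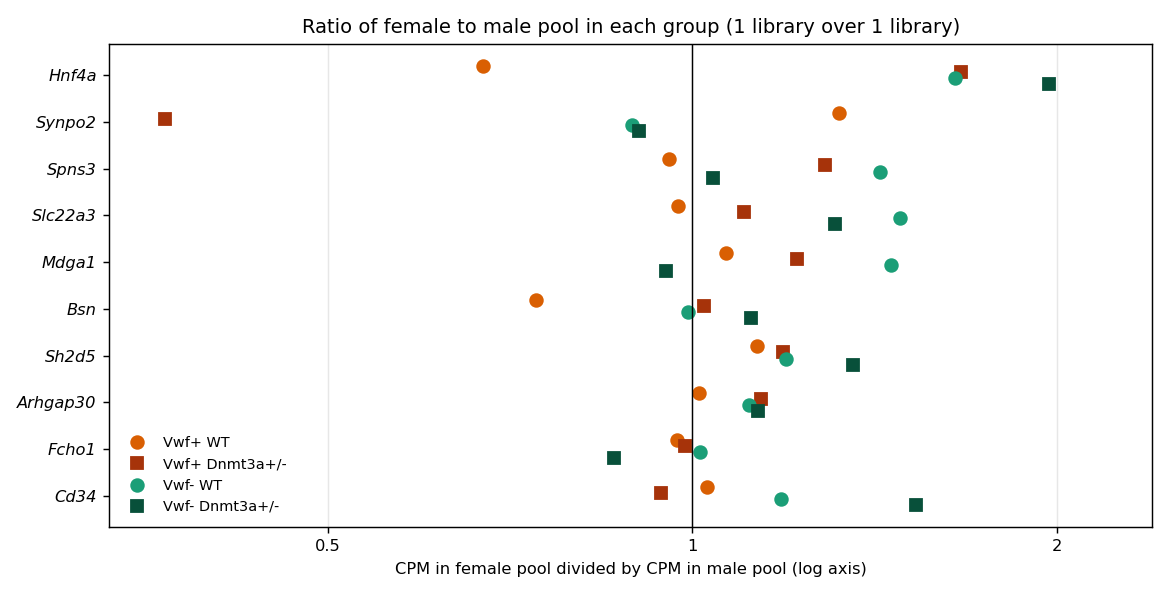
Ratio of the female to the male pool (horizontal log axis) for each gene in the 4 groups, each point 1 library over 1 library. Hnf4a lies at 1.65 to 1.97 in 3 groups and at 0.672 in Vwf+ WT cells, Sh2d5 and Arhgap30 lie right of 1 in all 4, and Synpo2 reaches 0.367 in Vwf+ Dnmt3a+/- cells.

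The genes flanking the 10 did not share their difference for the most part. Of 20 flanking genes, all tested, 0 were called higher and 2 lower in Vwf+ cells (median 0.049, range −1.302 to 0.66). Kif17, a kinesin gene next to Sh2d5, fell by 1.302 ± 0.195 (SE, log2; edgeR adjusted p = 0.00365), from 17.1 to 27.1 CPM in Vwf- to 5.64 to 11.6 CPM in Vwf+ libraries. It overlaps Sh2d5 on the same strand in the GENCODE annotation, so reads of either gene may have been counted for the other. Sec24d, a COPII coat gene beside Synpo2, fell by 0.89 ± 0.23 (SE; edgeR adjusted p = 0.0493). It passed on leaving out Vwf+ Dnmt3a+/- replicate 2, Vwf- Dnmt3a+/- replicate 1 or Vwf- WT replicate 1, but without any other library the edgeR adjusted p was up to 0.204, and on the TPM scale it did not pass (limma adjusted p = 0.136). On the opposite strand Gm16897 overlaps Cd34 with up to 588 counts in a library, Plg overlaps Slc22a3 with up to 46, Hnf4aos overlaps Hnf4a with up to 4 and 4930447F24Rik overlaps Bsn with up to 3. The noncoding gene C030013G03Rik overlaps Slc22a3 in RefSeq, with up to 85 counts. The strand setting of the counting is not given, so reads of a gene and its antisense partner cannot be told apart.

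Markers of other cell types that express some of these genes were mostly near 0, with exceptions. Of 8 hepatocyte markers, Alb, Ttr, Apoa1, Serpina1a and Fgb stayed under 1 CPM in all 8 libraries, and Apob and the transferrin gene Trf were called lower in Vwf+ cells, Trf by 0.99 ± 0.18 (SE, log2; edgeR adjusted p = 0.00891). The hepatocyte sum was 16.2 to 21.9 CPM in Vwf+ and 31.7 to 48.6 CPM in Vwf- libraries. Of 8 neuron markers 7, and of 8 muscle markers 5, stayed under 1 CPM in all libraries, where Bsn, Mdga1 and Synpo2 were measured. Mast cell and basophil markers summed to 1.59 to 4.14 CPM in Vwf+ and 8.86 to 16.1 CPM in Vwf- libraries, and Cpa3 was called lower (−2.24 ± 0.32, SE; edgeR adjusted p = 0.00305). T and NK cell markers summed to 2.89 to 4.78 CPM against 9.60 to 11.6 CPM, with Cd3d, Cd3e, Cd3g, Cd8a and Ncr1 under 1 CPM and Nkg7 called lower (−1.69 ± 0.27, SE; edgeR adjusted p = 0.00547), and 2 of the list under the block. Endothelial markers went the other way, at 1064 to 1211 CPM in Vwf+ and 870 to 924.7 CPM in Vwf- libraries. The part of such cells in the difference of the 10 genes was not tested.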

How the data were processed

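RNA was measured in 8 libraries of sorted mouse LT-HSCs, 4 groups of 2. The deposited table of raw counts and the deposited table of TPM values were made by the authors. Per the submitters' processing notes, the tools were Trim Galore, STAR, featureCounts and DESeq2 on build mm10, with roles and versions not stated. The annotation and strand setting are not given in the sources used here. The deposited TPM is a count per fixed gene length (the implied length varied at most 1.02-fold between libraries over 14449 genes).

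From the counts, R 4.3.3 and edgeR 4.0.16 gave quasi-likelihood tests on 15917 genes that passed filterByExpr (minimum count 10), with TMM scaling, 4 group means, all 8 libraries, 4 residual degrees of freedom and Benjamini-Hochberg adjustment over all tested genes at a threshold of 0.05. The SE is the log2 difference over the square root of F. Sex was tested as an added term. Coordinates of genes are from GENCODE M21, start-site windows from RefSeq. Alternatives were a replicate block, DESeq2 1.42.0, upper quartile scaling, no filter, limma 3.58.1 on log2(TPM + 0.5), and leaving out each library. The edgeR tests of the fractions and of genotype averaged over Vwf status were checked on simulated counts. Those counts held no sex or replicate effect, so the check does not cover such an effect or the other comparisons. P-values measure the spread between pools, which includes sex. Counting precision is set by the total counts per library, 21809278 to 39402418.

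The genes, the lists and the comparisons were chosen with earlier results of these data known. Named genes are the 10, up to 4 called genes per list by smallest p, paralogs, the nearest profiles of Hnf4a, Cd34 and Slc22a3, flanking genes, Dnmt3a and Vwf. Igf2r, Airn, Nlgn2, Bcr, Slc22a5, Mpo, Ctsg, Irf8, Kit and further genes named as under 1 CPM were named outside this rule, with their values seen. Some genes that the rule names are not reported here. Replicate numbers pair the libraries because the labels give 1 sex to each number; deviations of same-numbered libraries correlated at r = 0.13 to 0.3 over 15917 genes for 6 pairs of groups, and the block left 3 residual degrees of freedom.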

Additional observations from a re-analysis of the deposited data

How the results depend on the processing

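For the 10 genes the direction between the fractions was the same under all 13 alternatives. The genes were chosen on this difference in the same libraries, so the kept direction is a description and no support. On the log2(TPM + 0.5) scale Synpo2 moved to −2.37 and Bsn to −1.53. In the genotype and interaction comparisons 0 of the 10 passed under any alternative run. The number of genes called between the fractions, 866, was 2132 with the replicate block, 1418 with DESeq2, 1649 without a filter, 540 with limma on TPM and 472 to 1387 on leaving out 1 library, the ends being Vwf- WT replicate 2 and Vwf- Dnmt3a+/- replicate 1; it was 499 without Vwf+ WT replicate 2. For genotype averaged over fractions, 0 became 30 with the replicate block, 16 with DESeq2, 61 without a filter and 0 to 3 on leaving out 1 library, 2 without Vwf- Dnmt3a+/- replicate 1 and 3 without replicate 2. In Vwf+ cells 0 became 6, 5 and 53 under the first 3 of these, and in Vwf- cells 2, 2 and 27. The interaction had 24 without a filter. The 1677 genes called between sexes became 335 with limma and 713 to 2922 on leaving out 1 library. The cause of these changes was not tested. Of 38 other called genes of the lists and flanks, 20 kept the call under all 13 alternatives and 18 lost it in some, with 0 changes of sign. With the replicate block, 0 of the 10 genes were called in the genotype and interaction comparisons, as without it. The difference between the fractions chose the genes, so their calls there under the block are no check. The low counts of Synpo2 and Hnf4a in Vwf+ cells limit their ratios.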

Other observations

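Lists of other blood and vessel cells, not described above, showed the following between the fractions. Of 10 endothelial markers 3 were called higher in Vwf+ cells and 0 lower: Cldn5, a tight junction gene (5.46 ± 0.24, SE, log2), Kdr, a VEGF receptor gene (2.615 on that scale), and Cdh5. Of 10 tested megakaryocyte markers 3 were called higher and 0 lower, Itgb3, Gp1bb and Pf4, and their summed level was 1067 to 1259 CPM in Vwf+ and 680.5 to 757.4 CPM in Vwf- libraries. Of 9 neutrophil markers 2 were called higher and 0 lower, the granule protease genes Elane and Prtn3 (sum 141.5 to 250 against 76.5 to 131 CPM). Cdh5 lost its call without Vwf+ Dnmt3a+/- replicate 2, Vwf+ WT replicate 1, Vwf+ WT replicate 2, Vwf- Dnmt3a+/- replicate 2 or Vwf- WT replicate 1 (edgeR adjusted p up to 0.177), and Cdh5 and Elane lost theirs on the TPM scale (limma adjusted p = 0.0501 and 0.0609). Leaving out Vwf+ Dnmt3a+/- replicate 2 or Vwf- WT replicate 2 ended the calls of Elane, Pf4 and Gp1bb, leaving out Vwf+ WT replicate 2 those of Elane and Pf4, and leaving out Vwf+ WT replicate 1 that of Elane (edgeR adjusted p up to 0.119). With replicate number as a block 5 endothelial, 7 megakaryocyte and 3 neutrophil markers were called higher. Of 5 B cell, 8 monocyte and macrophage and 5 erythroid markers tested, 0 were called in either direction, with summed levels of 12.9 to 19.0, 12.2 to 36.0 and 18.4 to 29.0 CPM in Vwf+ and 12.2 to 16.3, 19.1 to 32.6 and 22.0 to 42.3 CPM in Vwf- libraries. Under the block the erythroid genes Epor and Car1 were called higher and lower (edgeR adjusted p = 0.0247 and 0.0037), and 1 muscle marker was called higher.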
